A study of Caenorhabditis elegans with 6 samples.

Results

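The genes examined act in iso-branched fatty acid synthesis in the nematode Caenorhabditis elegans: elo-5, elo-6, acs-1, let-767, hpo-8 and art-1. They were taken by their platform gene symbols, and they are 6 of 17118 genes with a one-gene probe set on the Affymetrix C. elegans array. Of these 6 genes, acs-1 had 2 one-gene probe sets and each of the others had 1, and all 7 probe sets passed the filter on dim signals. A gene is represented by its brightest probe set over the 6 arrays. RNA came from whole L1 larvae, the first larval stage, that hatched and stayed for 24 h at 20 °C on plates without food. The mutant groups carried elo-5(gk208), an allele of the first of the 6 genes, and the remaining group was the wild-type strain N2. In all groups the grandmothers had received 1 mM C17ISO in DMSO on OP50 bacteria, and the mothers then received either C13ISO or C17ISO at 1 mM. There were 2 arrays each of elo-5 C13ISO, whose larvae the labels describe as C17ISO deficient, elo-5 C17ISO, and N2 C13ISO. N2 larvae from C17ISO-fed mothers were not analysed here, so elo-5 C17ISO and N2 C13ISO differ in both genotype and supplement. The series design calls the arrays of a group biological replicates, so the spread below is that between preparations of larvae.

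Both supplements are saturated acids whose chain ends in an iso methyl branch, and C17ISO has the longer chain. Worms build such acids from a branched primer derived from leucine. Elongation of a fatty acid proceeds in cycles of 4 reactions on the acyl-CoA: an elongase condenses it with malonyl-CoA, a ketoacyl-CoA reductase acts next, then a hydroxyacyl-CoA dehydratase, and an enoyl-CoA reductase completes the cycle. In C. elegans ELO-5 and ELO-6 are the elongases of branched chains, LET-767 is the ketoacyl-CoA reductase, and ACS-1 is an acyl-CoA synthetase that activates branched acids. HPO-8 is related to the dehydratases, and ART-1 to the enoyl-CoA reductases, of yeast and mammals. C17ISO is needed for growth beyond the first larval stage, and sphingolipids of this worm are built on an iso-branched base.

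The elo-5 C13ISO arrays stood apart from the other 4 across the whole table. Spearman correlations were 0.926 to 0.943 between them and the arrays of the other groups, against 0.981 to 0.982 between elo-5 C17ISO and N2 C13ISO, and 0.984 to 0.989 within groups. Of all tested probe sets, 25.7% were called higher and 18.8% lower in elo-5 C13ISO than in elo-5 C17ISO. Against N2 the shares were 23.2% higher and 20.4% lower, and they stand beside the marker counts below. Of 24 oocyte and early embryo markers, 23 were tested. Against elo-5 C17ISO, 20 were called higher in elo-5 C13ISO and 0 lower. The summed intensity of the 24 was 11500 to 17615 in elo-5 C13ISO, 3012 to 4015 in elo-5 C17ISO and 3799 to 4609 in N2 C13ISO. The sum of 8 epidermis markers ran the other way, at 4860 to 5669, 15096 to 16286 and 14356 to 15378 in the same order of groups. Of the 8, 4 were called lower and 0 higher in elo-5 C13ISO than in elo-5 C17ISO, and 6 lower and 0 higher than in N2. The fall was large for wrt-2 (391 and 553 against 4361 and 4484 in elo-5 C17ISO). In contrast elt-3 (1100 and 1228 against 1787 and 1199) and ajm-1 (1048 and 1328 against 1349 and 1224) overlapped between the mutants. For 10 intestine markers, the tissue where elo-5 and elo-6 are known to be expressed, the sums were 19678 to 21538, 23256 to 24956 and 25806 to 26121, of which the protease gene asp-1 gave 7925 to 11538. Single intestine markers went both ways, with 4 called higher and 4 lower in elo-5 C13ISO than in elo-5 C17ISO, and 2 higher and 3 lower than in N2. The intestinal GATA factor gene elt-2 read 202 and 197 in elo-5 C13ISO against 114 and 128 in elo-5 C17ISO, and the peptide transporter gene pept-1 read 699 and 467 against 331 and 258, both called higher. In the other direction cpr-6 read 1227 and 1027 in elo-5 C13ISO against 3217 and 2962 in elo-5 C17ISO, and mtl-2 read 1081 and 1271 against 2200 and 2009. Sums of 6 muscle markers (21237 to 24397) overlapped between groups. Of these 6, 1 was called lower and 0 higher in elo-5 C13ISO than in elo-5 C17ISO, and 2 lower and 1 higher than in N2. Sums of 6 neuron markers were 12037 to 12210 in elo-5 C13ISO, 11012 to 12771 in elo-5 C17ISO and 10817 to 11801 in N2. Both elo-5 C13ISO arrays thus lay above both N2 arrays, with 0 of the 6 called in either comparison. The 6 sperm markers were dim everywhere, with sums of 107 to 133. Markers of somatic larval tissues were thus read in every group. The part of these shifts in the results below was not tested, and in RNA from whole larvae fewer cells of a type and less RNA per cell cannot be told apart.

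The gene mutated in these strains, elo-5, was low in both mutant groups whichever supplement the mothers received. Its probe set read 217 and 144 on the elo-5 C13ISO arrays, 146 and 178 on the elo-5 C17ISO arrays, and 1170 and 1608 on the N2 arrays. Both mutant groups lay far below N2 and overlapped each other, and their means were 13% and 11.7% of the N2 mean. In limma's test with Benjamini-Hochberg adjustment over 15783 probe sets, elo-5 fell 7.18-fold in elo-5 C13ISO against N2 (log2 difference -2.84, SE 0.22, adjusted p = 5.31e-06). It fell 7.82-fold in elo-5 C17ISO against N2 (log2 -2.97, SE 0.22, adjusted p = 0.000208), where only 2 tested probe sets had a more negative difference. The mutant groups differed by a log2 value of 0.12 (95% interval -0.38 to 0.62, adjusted p = 0.689), and its sign turned with quantile normalization (-0.05) and with array medians aligned (-0.11). The sources used here do not place the probes relative to the deleted part, so the low reading does not by itself check the genotype.

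The other branched-chain elongase gene, elo-6, was low in the C13ISO mutants and near the N2 level in the C17ISO mutants. It read 1011 and 1009 in elo-5 C13ISO, 2308 and 1709 in elo-5 C17ISO, and 2262 and 2107 in N2. All 4 arrays of the latter groups lay above both elo-5 C13ISO arrays, and those 4 arrays overlapped. The elo-6 level in elo-5 C13ISO was 50.3% of that in elo-5 C17ISO (log2 -0.96, SE 0.15, adjusted p = 0.000442) and 46.2% of that in N2 (log2 -1.10, SE 0.15, adjusted p = 0.000173). For elo-5 C17ISO against N2 it was -0.14 on the log2 scale (95% interval -0.46 to 0.19, adjusted p = 0.72). The N2 and elo-5 C17ISO levels of elo-6 therefore stand in an order that does not exceed their spread, and the sign of the difference turned without elo-5 C17ISO replicate 2 (0.08). In the RefSeq annotation of WBcel235, elo-5 and elo-6 lie on the same chromosome, IV, with 3 protein-coding genes between them. The 2 of those with a one-gene probe set, F41H10.2 and F41H10.12, were too dim to be tested, with group means of 21.3 to 43.7 and 7.18 to 15.4.

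The synthetase gene acs-1 had in the C13ISO mutants 38.4% of its level in the C17ISO mutants, the lowest such ratio of the 6 genes. On its brighter probe set it read 179 and 210 in elo-5 C13ISO, 519 and 494 in elo-5 C17ISO, and 435 and 462 in N2. On the dimmer one the values were 187 and 149, 331 and 457, and 422 and 441 in the same order. On both probe sets the elo-5 C13ISO arrays lay below all others. The fall was 2.49-fold against elo-5 C17ISO on the brighter probe set (log2 -1.31, SE 0.16, adjusted p = 8.69e-05) and 2.22-fold on the dimmer (log2 -1.15, SE 0.19, adjusted p = 0.000834). Against N2 it was 2.21-fold on the brighter (adjusted p = 0.000205) and 2.45-fold on the dimmer probe set (adjusted p = 0.000375). The probe sets disagreed only on the order of elo-5 C17ISO and N2, with log2 differences of 0.17 (95% interval -0.18 to 0.52) and -0.14 (-0.57 to 0.29), neither of them called.

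The ketoacyl-CoA reductase gene let-767 was at 1179 and 1387 in elo-5 C13ISO, 2571 and 2263 in elo-5 C17ISO, and 2576 and 2730 in N2. The elo-5 C13ISO arrays were the lowest, and the elo-5 C17ISO arrays lay just under the N2 arrays without a called difference (log2 -0.14, 95% interval -0.41 to 0.13). In elo-5 C13ISO it fell 1.88-fold relative to elo-5 C17ISO (log2 -0.91, SE 0.12, adjusted p = 0.000198) and 2.06-fold relative to N2 (log2 -1.04, adjusted p = 7.39e-05).

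The dehydratase-related gene hpo-8 read 1701 and 1689 in elo-5 C13ISO, 2602 and 2415 in elo-5 C17ISO, and 2988 and 3038 in N2. Its 3 groups did not overlap and stood in steps, with elo-5 C17ISO between the others. It fell 1.47-fold in elo-5 C13ISO against elo-5 C17ISO (log2 -0.56, SE 0.10, adjusted p = 0.00115) and 1.77-fold against N2 (log2 -0.82, SE 0.10, adjusted p = 9.11e-05). The step from N2 to elo-5 C17ISO was -0.26 in log2 (95% interval -0.48 to -0.04). That interval leaves out 0 for this gene taken alone, but the difference did not pass limma's test adjusted over all probe sets (adjusted p = 0.227).

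The enoyl-reductase-related gene art-1 read 2004 and 2333 in elo-5 C13ISO, 3891 and 3494 in elo-5 C17ISO, and 3642 and 3660 in N2. The elo-5 C17ISO arrays lay on either side of the N2 arrays, and both groups were above elo-5 C13ISO. The fall was 1.70-fold against elo-5 C17ISO (log2 -0.77, SE 0.11, adjusted p = 0.000252) and 1.68-fold against N2 (log2 -0.75, SE 0.11, adjusted p = 0.000268). Between elo-5 C17ISO and N2 the log2 difference was 0.01 (95% interval -0.22 to 0.25), and it turned to -0.06 without elo-5 C17ISO replicate 1.

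**Figure D1:**
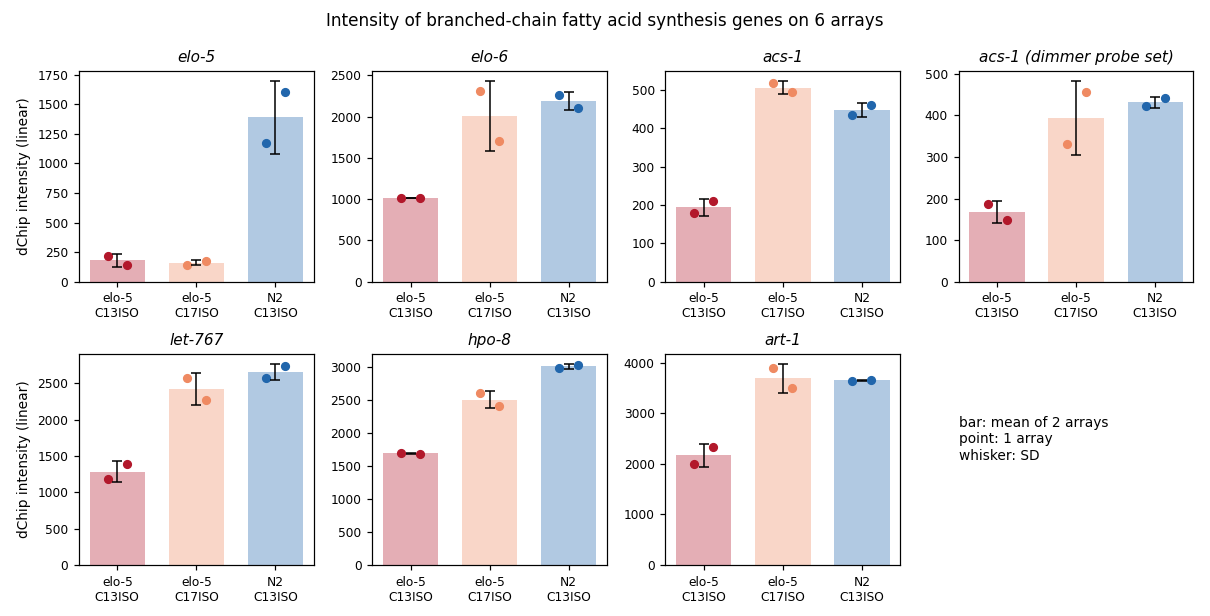
Deposited dChip intensity (linear scale, vertical axis from 0) of the 7 probe sets in each group, with points for single arrays, bars for the mean of 2 arrays and whiskers for the SD. The elo-5 panel is low in both mutant groups (13% and 11.7% of N2), while the other 6 panels are lowest in elo-5 C13ISO.

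Within the elo-5 mutants, related fatty acids supplied at a matched 1 mM were set side by side. With the shorter acid 5 of the 6 genes were called lower, 0 higher, and elo-5 was not called. Of all tested probe sets 18.8% were called lower, 25.7% higher and 44.5% in either direction. For 5 of the 6 genes no array of one group reached into the range of the other, as for 71.4% of all tested probe sets. The median log2 difference was -0.84 over the 6 genes and 0.07 over all tested probe sets. Differences of this size were common when rises and falls were both counted. Absolute log2 differences exceeded that of acs-1 in 11.8% of the tested probe sets and that of elo-6 in 19.4%. The shares were 21.2% for let-767, 26.5% for art-1 and 37.7% for hpo-8. Ranked from the most negative difference among the 15783 tested probe sets, acs-1 stood at 809, elo-6 at 1236 and let-767 at 1348. In that ranking art-1 stood at 1653 and hpo-8 at 2388. With a requirement of at least 2-fold, 1 of the 6 genes, acs-1, remained called.

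In elo-5 C13ISO against N2 C13ISO the supplement was held and the genotype changed. All 6 genes were called lower there, against 20.4% of the tested probe sets called lower, 23.2% called higher and 43.6% called in either direction. The 6 include elo-5, the gene mutated in 1 of these groups, which was also low in elo-5 C17ISO. The arrays did not overlap for any of the 6, against 72.6% of the tested probe sets. With elo-5 included, the median log2 difference of the 6 genes was -1.07, and that of all tested probe sets was 0.02. Of the 6 genes, 4 passed at 2-fold or more (elo-5, acs-1, elo-6 and let-767), and hpo-8 and art-1 stayed under it. This comparison and the previous one share the elo-5 C13ISO arrays, so their values are not independent of each other.

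With C17ISO given to the mothers, the mutants differed from N2 C13ISO in 1 of the 6 genes, elo-5 itself. Calls for a lower level covered 0.64% of all tested probe sets in this comparison, calls for a higher level 0.767%, and calls in either direction 1.41%. The arrays of these groups did not overlap for 4 of the 6 genes, near the 50.9% of all tested probe sets for which they did not. Log2 differences of the other 5 genes lay between -0.26 and 0.17, and their 95% intervals reached from -0.48 at the lowest to 0.52 at the highest. A remaining difference of up to that size is not excluded by 2 arrays a group. The total of 222 called probe sets depended on the arrays in the fit, being 534 with only the 4 arrays compared. Leaving out an array leaves 1 in its group, so a change in the count then cannot be laid to that particular array. The elo-5 call held with only the 4 arrays compared, and its log2 difference ran from -3.19 to -2.74 with an array left out.

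**Figure D2:**
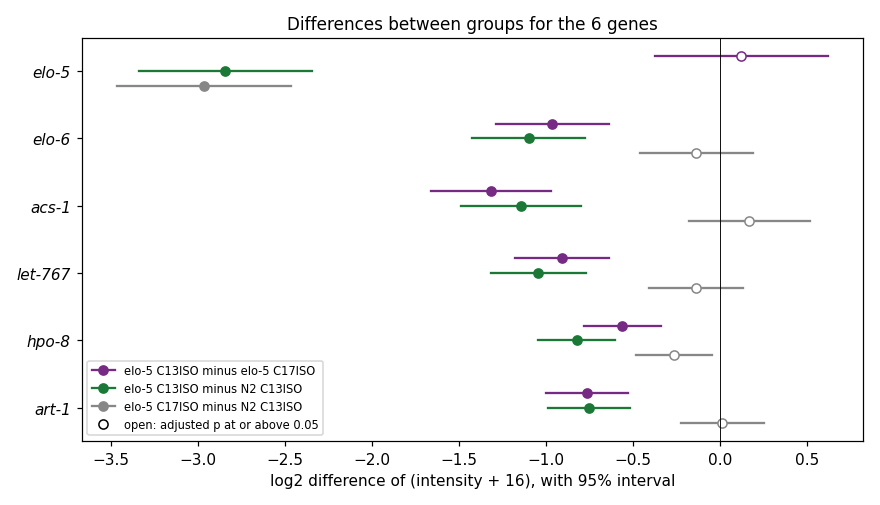
Log2 differences of (intensity + 16) with 95% intervals for the 6 genes in the 3 comparisons; filled points passed adjusted p under 0.05 and open points did not. For elo-5 both comparisons with N2 are near -3, while for the other 5 genes both comparisons with elo-5 C13ISO lie between -1.31 and -0.56 and the grey points lie near 0.

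**Figure D3:**
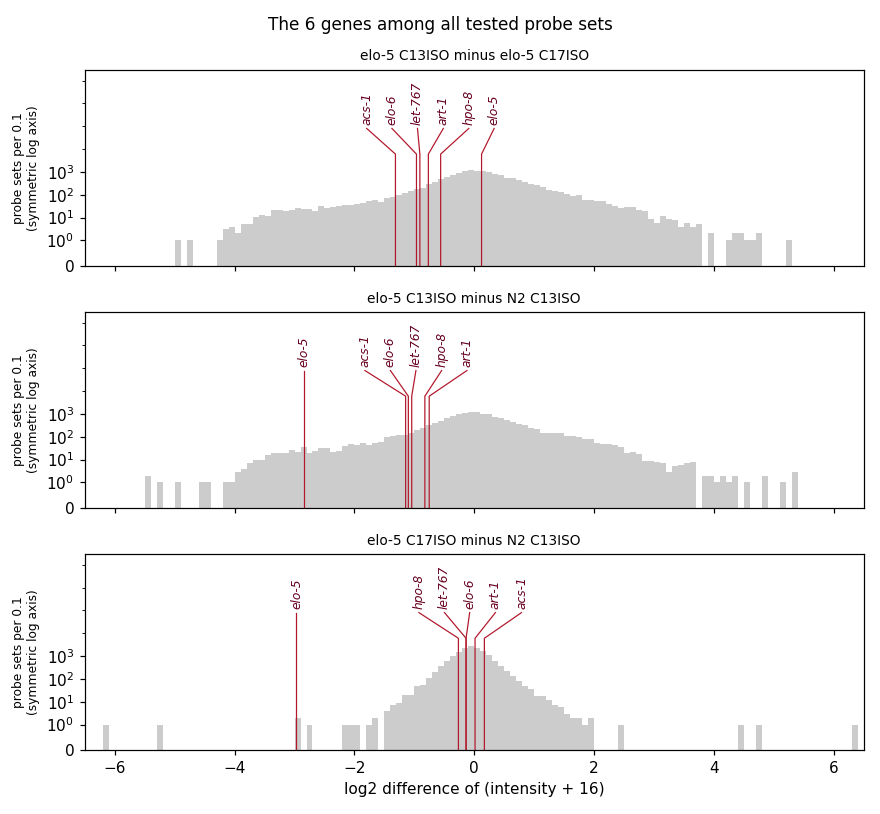
Numbers of tested probe sets (symmetric log axis) per 0.1 of log2 difference in each comparison, with the 6 genes marked by red lines. In the upper panels the distribution is broad and the genes stand within it. In the middle panel elo-5, at -2.84, lies toward its lower end, with 1.63% of tested probe sets larger in absolute difference. In the lowest panel elo-5, at -2.97, stands in the sparse tail of a narrow distribution.

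Setting the 6 genes against each other by their profile over the arrays, with the mean level removed, separated elo-5 from the rest. The measure was the root mean square distance between the 6 log2 values of a pair of genes, each gene centred on its own mean. The values were not scaled, so the distance depends on the size of a change as well as on its shape. The 10 pairs among elo-6, acs-1, let-767, hpo-8 and art-1 had distances of 0.11 to 0.32, with elo-6 and let-767 the closest. The 5 pairs with elo-5 had distances of 1.17 to 1.31. Among 12051 other genes, 345 lay within 0.2 of elo-6, 260 of acs-1, 499 of let-767, 1086 of hpo-8 and 927 of art-1, and 0 lay within 0.2 of elo-5. At this limit a close profile was common for the 5 and absent for elo-5, whose differences from N2 were the largest of the 6 genes. The part of shape alone in this was not tested.

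The genes nearest to elo-5 were cdh-10 (distance 0.42), clec-52 (0.55) and gcsh-1 (0.61), a cadherin, a C-type lectin and a glycine cleavage system H protein gene. The cdh-10 probe set averaged 9.81 and 18.2 in the C13ISO and C17ISO mutants and 247 in N2. For clec-52 the means were 41.3, 96.2 and 768 in that order, and for gcsh-1 they were 46.7, 22.6 and 152. Nearest to elo-6 were ZC239.4, C14H10.2 and knl-3 (0.06 to 0.07), and nearest to acs-1 were Y113G7B.11, maph-1.1 and grd-12 (0.06 to 0.07). For let-767 the nearest were K11D12.7, C44B7.7 and W01A11.1 (0.04 to 0.05). The list for hpo-8 was epic-1, madf-4 and the mitochondrial isocitrate dehydrogenase gene idh-2 (all 0.05). The genes closest to art-1 were metl-9, the respiratory complex gene ucr-2.2 and cest-27 (all 0.05). The nearness is over 6 arrays and is a description without a test.

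Other genes of the same and neighbouring steps were less uniform than the 5. Of 7 further elongase genes, 6 were on the array and 5 were tested. In each comparison with elo-5 C13ISO, 2 of the 5 were called lower and 0 higher, with medians of -0.36 against elo-5 C17ISO and -0.70 against N2. Of all tested probe sets 18.8% and 20.4% were called lower in these comparisons, and 25.7% and 23.2% higher, with medians of 0.07 and 0.02. These shares also stand beside the counts of the lists below, which are small. The 2 elongase genes called lower were elo-1, an elongase of polyunsaturated fatty acids, and elo-4. The elo-1 values were 1998 and 2098 in elo-5 C13ISO, 3467 and 3032 in elo-5 C17ISO, and 4233 and 3781 in N2, a log2 difference of -0.66 between the mutants (SE 0.11, adjusted p = 0.000658). The elo-4 values were 284 and 425, 2170 and 2381, and 2329 and 2438, a log2 difference of -2.65 (adjusted p = 1.52e-06), which was larger than that of any of the 6 genes in that comparison. The straight-chain elongase gene elo-2 was not called, with log2 differences of 0.17 and 0.08.

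A further list held 4 tested genes, for malonyl-CoA supply and fatty acid synthase. Against elo-5 C17ISO, 3 of these were called lower in elo-5 C13ISO and 0 higher. Against N2, 3 were called lower and 1 higher. Malonyl-CoA and its precursor come from acetyl-CoA carboxylase (pod-2) and ATP citrate lyase (acly-1, acly-2), and these were the 3 genes called lower in both comparisons. The acly-2 values were 151 and 150 in elo-5 C13ISO, 606 and 566 in elo-5 C17ISO, and 632 and 594 in N2 (log2 -1.85 and -1.92 for elo-5 C13ISO against the other groups in that order). For pod-2 the same log2 differences were -0.55 and -0.60, and for acly-1 -0.97 and -0.95. The fatty acid synthase gene fasn-1 was not called against elo-5 C17ISO (log2 0.13). Against N2 its log2 difference was 0.34 with adjusted p = 0.037 in limma, a call lost in 6 of 16 alternatives, among them the fits without either elo-5 C13ISO array and without N2 C13ISO replicate 2 (adjusted p up to 0.333).

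The branched primer is made from leucine by the transaminase BCAT-1 and the branched-chain ketoacid dehydrogenase complex, and 5 genes of these enzymes were tested. Against elo-5 C17ISO, 2 were called lower (dbt-1 and dld-1, log2 -0.50 and -0.47), a count that was 1 without either elo-5 C17ISO array, and the dbt-1 call was also lost without elo-5 C13ISO replicate 1 (adjusted p = 0.0591). Against N2, 3 were called lower (dbt-1, dld-1 and bckd-1B, log2 -0.67, -0.55 and -0.45), a count that was 1 without N2 C13ISO replicate 2, and the bckd-1B call was also lost without elo-5 C13ISO replicate 1 (adjusted p = 0.0513). The fall of dld-1, the dihydrolipoyl dehydrogenase gene shared with other complexes, remained called in both comparisons in all 16 alternative fits, but was smaller than 2-fold in each. In contrast bcat-1 had a log2 difference of 0.40 against N2 (adjusted p = 0.03), lost in 5 of 16 alternatives, including those without elo-5 C13ISO replicate 2 and without either N2 array (adjusted p up to 0.171), and of 0.06 against elo-5 C17ISO (adjusted p = 0.746).

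Relatives of let-767 did not follow it as a family. The steroid dehydrogenase family gene stdh-1 fell, with values of 855 and 807 in elo-5 C13ISO, 1633 and 1629 in elo-5 C17ISO, and 1331 and 1595 in N2 (log2 -0.96 between the mutants, adjusted p = 0.00021). The gene stdh-2 rose, with values of 290 and 329, 117 and 106, and 95.3 and 60.7 (log2 1.35 between the mutants, adjusted p = 0.000481). A further relative, stdh-4, was not called, and stdh-3 did not pass the filter.

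Of 6 tested regulators of lipid genes, the sterol regulatory element binding protein gene sbp-1 was higher in elo-5 C13ISO. It read 619 and 564 there, 396 and 452 in elo-5 C17ISO, and 397 and 405 in N2 (log2 0.47 and 0.54, adjusted p = 0.0278 and 0.0145). The first of these calls was lost in 6 of 16 alternatives, including array medians aligned (0.24), without elo-5 C13ISO replicate 1 and without elo-5 C17ISO replicate 1 and without either N2 array (adjusted p up to 0.233). The second was lost with array medians aligned and without either N2 array (adjusted p up to 0.0881). The Mediator subunit gene mdt-15 had log2 differences of 0.34 and 0.18, and the nuclear receptor gene nhr-49 of 0.33 and 0.08, none of them called. Another nuclear receptor gene, nhr-80, had -0.66 and -0.37. The first of these was called (adjusted p = 0.0322), and the call was lost in 7 of 16 alternatives, including every fit without an array except that without elo-5 C13ISO replicate 1 (adjusted p up to 0.172).

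Sphingolipid genes, which use the branched products, were more often called higher than lower in elo-5 C13ISO. Of 10 tested, 7 were called higher than in elo-5 C17ISO and 0 lower, where 25.7% of all tested probe sets were called higher (median log2 0.95, against 0.07 for all tested). Against N2, 7 were called higher and 1 lower, where 23.2% of all tested probe sets were called higher (median log2 1.19, against 0.02). The gene called lower was the ceramide synthase gene hyl-2 (log2 -0.91), which was not called between the mutants (log2 -0.39). The ceramide synthase genes hyl-1 and lagr-1 went the other way and were called higher in both comparisons. The hyl-1 values were 1246 and 1005 in elo-5 C13ISO, 395 and 326 in elo-5 C17ISO, and 416 and 506 in N2. For lagr-1 they were 881 and 1645, 412 and 373, and 185 and 166 in the same order. The dihydroceramide desaturase gene ttm-5 read 1463 and 1835 in elo-5 C13ISO, 482 and 412 in elo-5 C17ISO, and 419 and 424 in N2 (log2 1.84 and 1.92). The serine palmitoyltransferase gene sptl-2 read 1852 and 2184, 1196 and 744, and 845 and 782 (log2 1.08 and 1.29), whereas sptl-1 had log2 differences of -0.10 and 0.05 and was not called. The fatty acid hydroxylase gene fath-1 was not called either (log2 0.0027 and 0.04). In the same arrays the summed oocyte and early embryo markers of elo-5 C13ISO were 414% of those of elo-5 C17ISO.

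Of 3 tested genes known to interact genetically with branched fatty acid shortage, 1 was called higher in elo-5 C13ISO in both comparisons and 0 lower. It was the flippase gene tat-2, whose loss is known to suppress the growth arrest of worms short of branched fatty acids. Its probe set read 1577 and 928, 310 and 304, and 440 and 313 (log2 1.92 and 1.66, adjusted p = 0.000135 and 0.00033). The genes nprl-2 (log2 -0.07 and -0.29) and nprl-3 (log2 -0.02 and 0.11), which encode relatives of the nitrogen permease regulators of yeast, were not called. Between elo-5 C17ISO and N2, 0 of the 36 tested genes of the 7 pathway lists were called in limma at adjusted p under 0.05, while 4 were higher and 2 lower at an unadjusted p under 0.05. That count depended on the setting. With only the 4 arrays compared, 1 sphingolipid gene was called higher and 1 branched primer gene lower between elo-5 C17ISO and N2. With array medians aligned, 1 sphingolipid gene was called higher there.

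**Figure D4:**
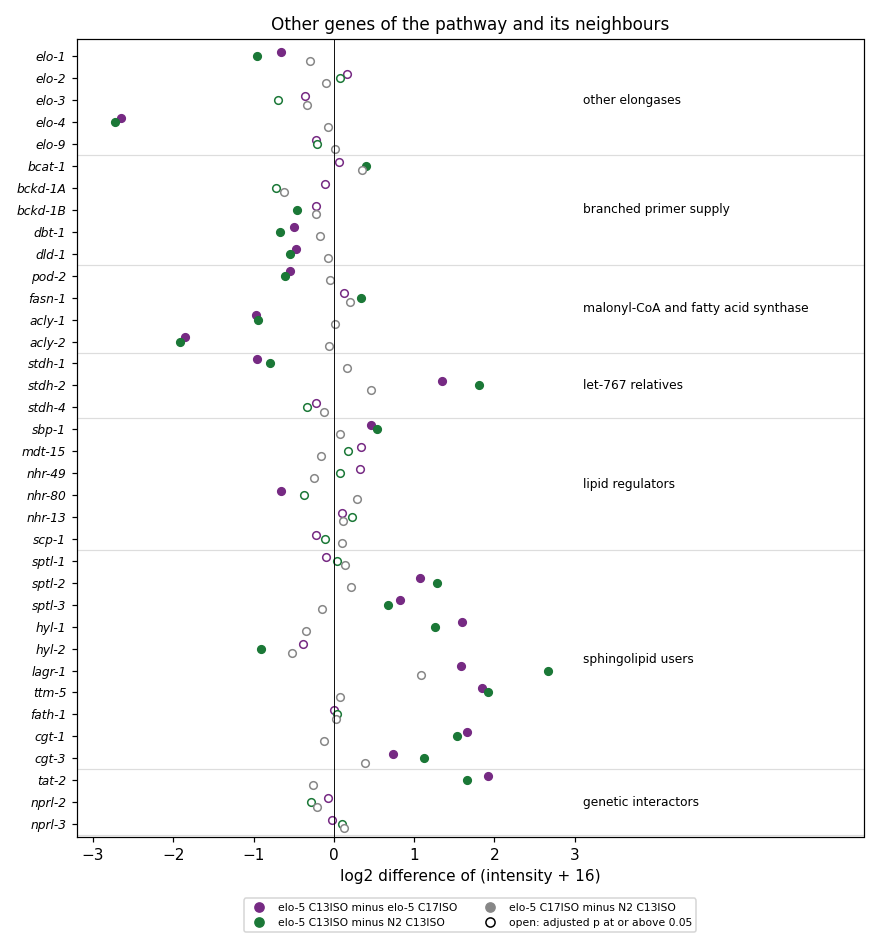
Log2 differences of (intensity + 16) for the tested genes of the 7 pathway lists in the 3 comparisons, with filled points for adjusted p under 0.05. Falls in elo-5 C13ISO are largest for elo-4 (-2.65 and -2.72) and acly-2 (-1.85 and -1.92), 7 of the 10 sphingolipid genes are called higher in elo-5 C13ISO against either other group, and all grey points (elo-5 C17ISO minus N2 C13ISO) are open.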

How the data were processed

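Per the labels, the authors derived the deposited intensity of each probe set with dChip, and the values show a linear scale. The sources used here give no dChip version, mismatch handling or normalization. The table was kept as normalized and transformed as log2(intensity + 16), so fold changes are on that scale and understate dim genes. Probe sets whose mean log2 value lay above the 30th percentile were tested (15783 of 22548). One limma fit (lmFit, eBayes with an intensity trend) held all 6 arrays with a mean per group, 3 residual and 6.94 prior degrees of freedom. Tests were two-sided, adjusted by the Benjamini-Hochberg method over all tested probe sets, with a threshold of 0.05. Gene names came from the platform annotation, updated through Entrez IDs to a WBcel235 gene table, which also gave the chromosome and gene order of elo-5 and elo-6, and no coordinates are printed from it. Probe sets ending in _s_at (elo-5, elo-6, let-767 and art-1) can match several transcripts. The number of arrays limits the precision.

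The 6 genes, the 7 pathway lists and the 6 marker lists were chosen with earlier results of these data known. The text names the 6 genes and the 3 genes nearest in profile to each of the 6. From the pathway lists it names some of the genes with large called differences and genes needed to explain a step, so not every called gene is named. Alternatives were offsets of 1 and 64, no filter or the 50th percentile, quantile normalization, aligned array medians, no trend, a robust prior, only the arrays compared, a replicate block, the mean of a gene's probe sets, 2-fold, and each array left out. The same alternatives for the pathway lists were added after seeing the data, and for single list genes they leave out the 2-fold rule. The fit was tested on simulated data. Deviations of same-numbered arrays correlated at 0.0015 to 0.0818, so the numbers were not taken to pair the samples. R 4.3.3, limma 3.58.1, Python 3.11.15, pandas 2.3.3 and matplotlib 3.10.9 were used.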

Additional observations from a re-analysis of the deposited data

How the results depend on the processing

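The 12 called differences of the 6 genes kept their direction and call in all 204 alternative fits (the 2-fold rule apart) (adjusted p up to 0.0106), and the 6 differences that were not called stayed so in all 102 (adjusted p of 0.138 or more). Of those 102, 6 changed sign: elo-5 between the mutants became -0.11 with array medians aligned, -0.047 with quantile normalization, and ran from -0.15 to 0.39 with an array left out; elo-6 and art-1 between elo-5 C17ISO and N2 ran from -0.35 to 0.079 and from -0.063 to 0.092 with an array left out. With a requirement of 2-fold, the genes called between the mutants numbered 1 in place of 5, and the probe sets called in the 3 comparisons numbered 2903, 2943 and 99 in place of 7026, 6875 and 222, since that setting is a stricter rule. In elo-5 C17ISO minus N2 C13ISO the probe sets called were 103 with no filter, 84 without an intensity trend and 534 with only the 4 arrays compared, and the cause was not tested. With an array left out they ran from 26 to 504, and in elo-5 C13ISO minus N2 C13ISO from 4582 (without N2 C13ISO replicate 2) to 6913. A replicate block changed no call of the 6 genes, and the probe sets called with it were 7175, 6968 and 242; for elo-6 the log2 difference between the mutants stayed at -0.96. Aligning array medians moved the median of all tested probe sets from 0.07 to -0.16 between the mutants and from 0.02 to -0.14 in elo-5 C13ISO minus N2 C13ISO. With 2 arrays a group, differences smaller than the intervals given could not be seen.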
